A study of Mus musculus with 2 samples.

Results

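The mRNAs of 10 apolipoprotein genes were examined in hepatocytes from control and CCl4-injected mice: Apoa1, Apoa2, Apoa4, Apoa5, Apob, Apoc1, Apoc3, Apoe, Apoh and Apom. They were taken by name, through their RefSeq identifiers, from a table of mRNA transcripts that held 20317 genes with a symbol, and all 10 were listed above 1 RPKM in both libraries. RPKM, the deposited unit, is the number of reads scaled by transcript length and by the total reads of the library, so that levels of different genes can be compared per length. The 2 libraries came from primary hepatocytes of WT male C57BL/6J mice. By the methods the mice were obtained at 5 weeks of age, before the injections. One group received oil intraperitoneally, and the other received 2.5 ml CCl4 per kilogram as a 20% solution in mineral oil, 2 times per week. The labels give 8 weeks of injections and the methods 4. CCl4 is a solvent whose metabolism in hepatocytes injures them, and its repeated injection leads to liver fibrosis. Each group had 1 library, and the number of mice behind it is not given in the sources used here. No difference below therefore has a replicate check, and no p-value is given.

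Apolipoproteins are the protein part of lipoproteins, the particles that carry cholesterol and triglyceride through the blood, and hepatocytes make most of them. ApoB is the scaffold of very low density and low density lipoprotein, with 1 molecule per particle, and apoA-I and apoA-II are the main proteins of high density lipoprotein (HDL). The smaller apolipoproteins move between particles and set how fast triglyceride is removed and how remnants are taken up. These genes are controlled in liver by hepatocyte transcription factors, among them HNF4α.

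In the CCl4 library the mRNAs of the HDL proteins apoA-I and apoA-II and of apoA-V were at 37.4% to 41.9% of their level in the oil library, that of apoA-IV was 2.09 times as high, and that of apoE was nearly the same. The other 5 mRNAs, Apob, Apoc1, Apoc3, Apoh and Apom, were at 50.1% to 67.8% of their oil level. Fold changes are given on the log2 scale, CCl4 relative to oil, after 0.1 RPKM was added to each value, and 2-fold, a log2 fold change of at least 1, was taken as the limit of a call. Of the 10 mRNAs, 3 were called lower and 1 higher, which became 7 and 0 with both libraries scaled to the median mRNA and 0 and 2 with both scaled to other plasma protein mRNAs. Among all 10689 genes at 1 RPKM or more in both libraries, 5.48% were called lower and 14.3% higher, against 9.71% and 7.99% with the first of these scalings and 0.524% and 73.1% with the second. Their median log2 fold change was 0.30, against -0.92 for the 10 apolipoproteins, 9 of which were below the median gene. Abundant genes as a whole were lower more often than other genes. Of the 373 genes with a mean level at or above that of Apom, the least abundant of the 10 by its mean (117 RPKM), 32.4% were called lower and 10.7% higher, with a median of -0.44. This limit of abundance was chosen after the values were seen. With the deposited RPKM, the share of apolipoproteins called lower was thus near that of genes of such abundance, whereas the median was further below 0. The comparison by abundance was not repeated with the scalings above.

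**Figure D1:**
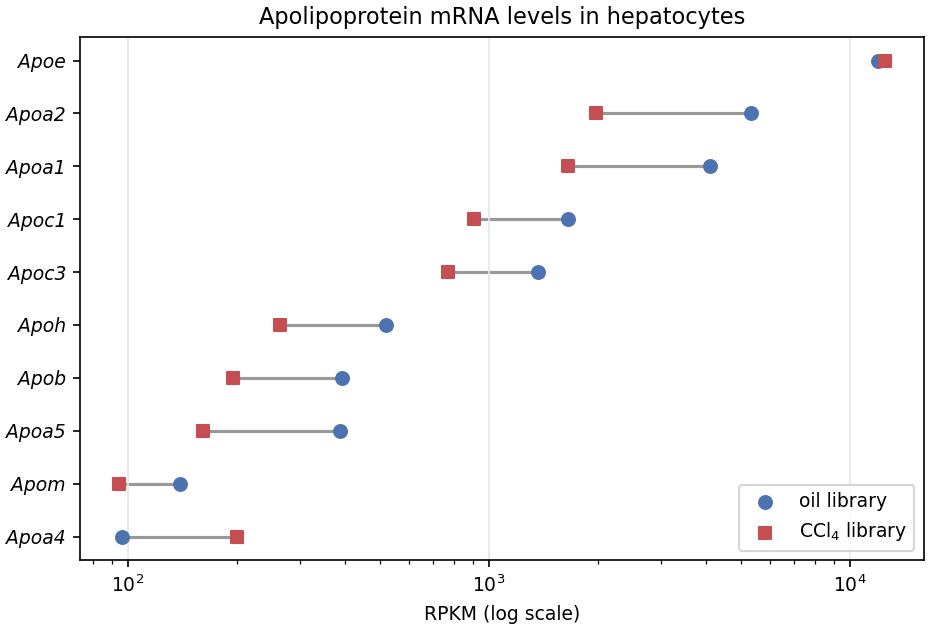
Levels of the 10 apolipoprotein mRNAs in RPKM on a log axis, with the oil library as circles and the CCl4 library as squares. Each point is 1 library. With the deposited RPKM, 8 mRNAs lie lower in the CCl4 library, Apoa4 lies higher (96.0 and 200.9 RPKM) and Apoe is nearly the same (11926 and 12521 RPKM). Scaled to other plasma protein mRNAs, 3 lie lower.

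The order of the levels was nearly the same in both libraries. Apoe was the most abundant gene of the mRNA table in each, followed among the 10 by Apoa2, Apoa1, Apoc1, Apoc3 and Apoh. In the oil library Apob, Apoa5, Apom and Apoa4 came next, and in the CCl4 library Apoa4 moved from the last of these places to the first. Apob and Apoa5 were close to each other in the oil library, at 391 and 386 RPKM. The 10 mRNAs together made up 7.68% of the summed RPKM of all genes with oil and 6.67% with CCl4. Without Apoe these shares were 4.14% and 2.22%. Within the sum of the 10, Apoe took 46.1% with oil and 66.8% with CCl4, while Apoa1 and Apoa2 together took 36.3% and 19.4%. Such shares and ratios within a library do not depend on how the libraries are scaled to each other.

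Of the HDL proteins, Apoa1 encodes apoA-I, the structural protein of HDL and the activator of the enzyme LCAT. It was at 4086 RPKM with oil and 1649.6 RPKM with CCl4, a log2 fold change of -1.31. Apoa2, which encodes the second HDL protein, was at 5298 and 1984 RPKM, a log2 fold change of -1.42 and the lowest of the 10. Both were lower in the CCl4 library, and their ratio stayed close, with 0.771 Apoa1 per Apoa2 with oil and 0.832 with CCl4. Counting error was small beside these differences. Had the transcript been only 300 bases long, the Apoa1 values would rest on 71084 and 31996 reads, which places the log2 ratio between -1.33 and -1.29 (95% exact Clopper-Pearson interval, counting error only). Apom encodes apoM, a lipocalin that carries sphingosine-1-phosphate on HDL, and was at 139 RPKM with oil and 94.3 RPKM with CCl4. Its log2 fold change of -0.56 was within 2-fold and nearer to 0 than those of the other mRNAs that were lower in the deposited values. Its counting interval was -0.65 to -0.47.

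Among the proteins of triglyceride-rich particles, Apob was at 391 RPKM with oil and 196 RPKM with CCl4. Its log2 fold change of -0.998 was the closest to the limit of a call from inside, and its counting interval of -1.06 to -0.94 spans that limit. From outside, Apoa4 at 1.06 was closest, with an interval of 0.98 to 1.15 that spans the limit as well. Apoc1 and Apoc3 encode small apolipoproteins that slow the clearance of triglyceride-rich particles, apoC-III by inhibiting lipoprotein lipase and remnant uptake. Apoc1 was at 1654 and 909.7 RPKM, with a log2 fold change of -0.86. Its second listed transcript, which may share reads with the first, was at 1453 and 799.7 RPKM and had the same log2 fold change of -0.86. Apoc3 was at 1363 and 770.1 RPKM, with a log2 fold change of -0.82. The ratio of Apoc1 to Apoc3 was 1.21 with oil and 1.18 with CCl4, so these mRNAs differed from the oil library by nearly the same factor.

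Apoa5 encodes apoA-V, a scarce plasma protein that favors triglyceride breakdown by lipoprotein lipase. It was at 386 RPKM with oil and 162 RPKM with CCl4, with a log2 fold change of -1.26 and a counting interval of -1.32 to -1.19. Apoa5 was therefore further below its oil level than Apoc3, whose protein acts the other way on the same enzyme, and the ratio of Apoc3 to Apoa5 was 3.53 with oil and 4.77 with CCl4. Apoa4, which encodes an apolipoprotein of chylomicrons and HDL made mainly in intestine and, in mice, also in liver, was at 96.0 RPKM with oil and 200.9 RPKM with CCl4. Its log2 fold change of 1.06 was above that of 87.3% of all genes tested, and was 0.76, within 2-fold, after scaling to the median mRNA. Apoa4 went from rank 503 among genes in the oil library to rank 213 in the CCl4 library, and the ratio of Apoa1 to Apoa4 was 42.6 with oil and 8.21 with CCl4. Apoh encodes beta-2-glycoprotein I, a plasma protein that binds anionic phospholipids. It was at 517 and 264 RPKM, with a log2 fold change of -0.97.

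Apoe encodes apoE, the ligand through which remnants are bound by their receptors on hepatocytes. It was at 11926 RPKM with oil and 12521 RPKM with CCl4, a log2 fold change of 0.07, or -0.23 after scaling to the median mRNA. Its log2 fold change was above that of 36% of all genes tested. Against the abundant hepatocyte mRNAs Apoa1 and Alb, the mRNA of albumin, it was higher in the CCl4 library, with 2.92 Apoe per Apoa1 with oil and 7.59 with CCl4, and with 1.38 and 1.93 Apoe per Alb. ApoE is also made by macrophages and by hepatic stellate cells, the cells that turn into myofibroblasts in fibrosis. By the methods, hepatocytes were separated from other cells by perfusion digestion and a density gradient, and purity was checked by qRT-PCR of marker genes. Of 12 listed Kupffer cell and macrophage markers, 9 were called higher in the CCl4 library and none lower. Their summed level was 1545 RPKM with oil and 4477 RPKM with CCl4, and none was listed at 0. Of the 12 stellate cell and myofibroblast markers, 11 were listed in both libraries and all 11 were called higher, with a summed level of 88.5 RPKM over the list with oil and 1047 RPKM with CCl4. Pdgfrb, a receptor of that list, was listed at 0 in the oil library and at 16.8 RPKM in the CCl4 library. The 8 sinusoidal endothelial markers were at a sum of 563 and 968 RPKM, with 2 called higher. Of 4 cholangiocyte markers above 1 RPKM in both libraries 2 were called higher, and of 4 erythroid markers 2 were called lower. The cholangiocyte markers Sox9 and Cldn7 were listed at 0 in both libraries. Of 3 neutrophil and 3 lymphocyte markers above 1 RPKM in both libraries, 1 each was called higher, Retnlg (1.51) and Cd79a (1.93), and none lower. The other 2 of each list were below 0 and within 2-fold, and the medians were -0.81 and -0.62. Of the other lymphocyte genes, Ms4a1 was listed at 0 with oil and at 1.95 RPKM with CCl4, and Cd3e was listed at 0 in both. The part of these cells in the level of Apoe was not tested. In such bulk libraries fewer cells of a type and less RNA per cell cannot be told apart.

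The libraries were from hepatocytes, and all 10 hepatocyte markers were above 1 RPKM in both, with Alb at 8656 and 6476 RPKM. All 10 had a log2 fold change below 0, with a median of -1.38, and 6 were called lower. The apolipoproteins were next set beside 16 other plasma proteins of hepatocytes, a list that runs from albumin and transferrin to fibrinogen and prothrombin. All 16 were below 0, 11 were called lower, and the median was -1.12. The lowest were the 3 fibrinogen chains Fgb (-2.15), Fga (-2.09) and Fgg (-2.08), and the highest were Alb (-0.42), Ttr (-0.71), the carrier of thyroxine, and Gc (-0.79), the carrier of vitamin D. The median of the 10 apolipoproteins was thus nearer to 0 than that of these plasma proteins. When both libraries were scaled so that the median of the 16 was equal, a scaling that raises every log2 fold change by up to 1.13, Apoa2, Apoa1 and Apoa5 were at -0.29, -0.18 and -0.13. Apob, Apoh, Apoc1, Apoc3 and Apom then changed sign and were at 0.13, 0.16, 0.26, 0.30 and 0.56. Apoe and Apoa4 were at 1.20 and 2.19 and called higher, as were 73.1% of all genes with this scaling, whose median was 1.41.

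**Figure D2:**
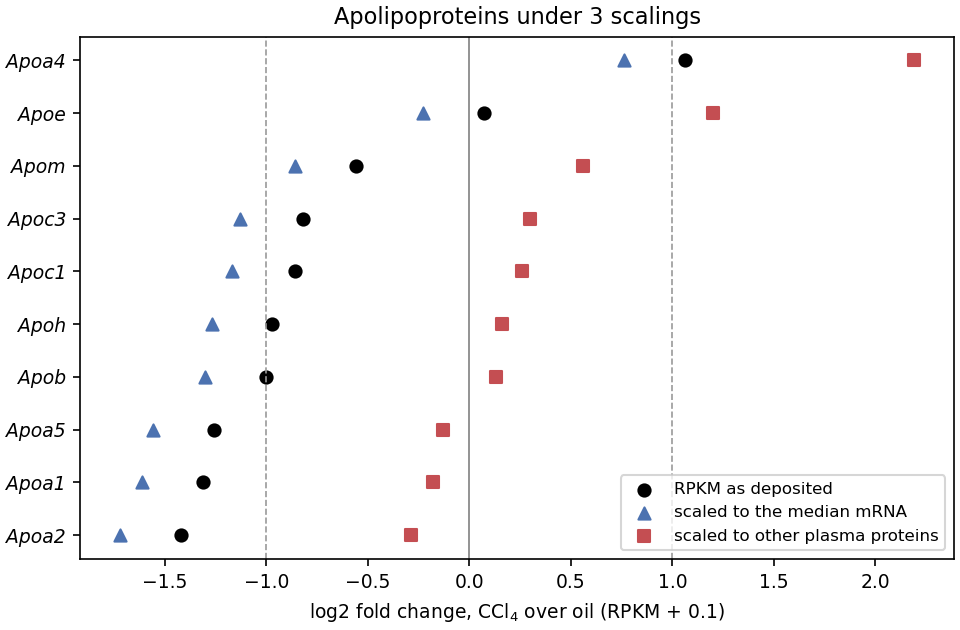
Log2 fold changes of the 10 apolipoprotein mRNAs, CCl4 over oil, with the deposited RPKM, with both libraries scaled to the median mRNA and with both scaled to the median of 16 other plasma protein mRNAs. Dashed lines mark 2-fold. The sign of Apoe and of 5 others depends on the scaling, Apoa1, Apoa2 and Apoa5 are below 0 in all 3, and Apoa4 is above 0 in all 3.

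The genes lie partly in clusters. Apoa1, Apoc3, Apoa4 and Apoa5 occupy 43.3 kb of chromosome 9 (chr9:46228630-46271921, GRCm38.p6, the assembly of the mm10 build), and Apoc2, Apoc4, Apoc1 and Apoe occupy 29.7 kb of chromosome 7 (chr7:19671579-19701310). Apoa2 is on chromosome 1, Apoh on 11, Apob on 12 and Apom on 17. Within the chromosome 9 cluster the log2 fold changes were -1.31 for Apoa1, -0.82 for Apoc3, 1.06 for Apoa4 and -1.26 for Apoa5. Apoa4 thus stood opposite to its direct neighbors on both sides in the deposited values. The neighboring genes outside the cluster were expressed at a far lower level, from 1.92 to 23.4 RPKM where listed, and were all within 2-fold. On one side they were Sidt2 (0.29), Pafah1b2 (0.23) and Sik3 (-0.25), and on the other Zpr1 (-0.31), Bud13 (0.43) and 4931429L15Rik, which was listed at 0 in both libraries.

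In the chromosome 7 cluster Apoe (0.07) lay beside Apoc1 (-0.86) and Apoc4 (-0.86), followed by Apoc2 (0.44). Apoc4 was at 446 RPKM with oil and 246 RPKM with CCl4, and at 55.1% of the oil level it was as far below it as Apoc1, at 55.0%. Apoc2 encodes apoC-II, the cofactor that lipoprotein lipase needs, and was at 84.5 and 114 RPKM. The ratio of Apoc3 to Apoc2 was 16.1 with oil and 6.73 with CCl4. Its dependence on cells other than hepatocytes, whose markers are given with Apoe, was not tested. A read-through gene spans Apoc4 and Apoc2 in the annotation, so reads of the pair may be split between entries. Of the genes outside, Clptm1 (0.33), Relb (0.66) and Clasrp (0.60) on one side and Tomm40 (0.00), Nectin2 (0.23) and Bcam (0.76) on the other were all within 2-fold.

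**Figure D3:**
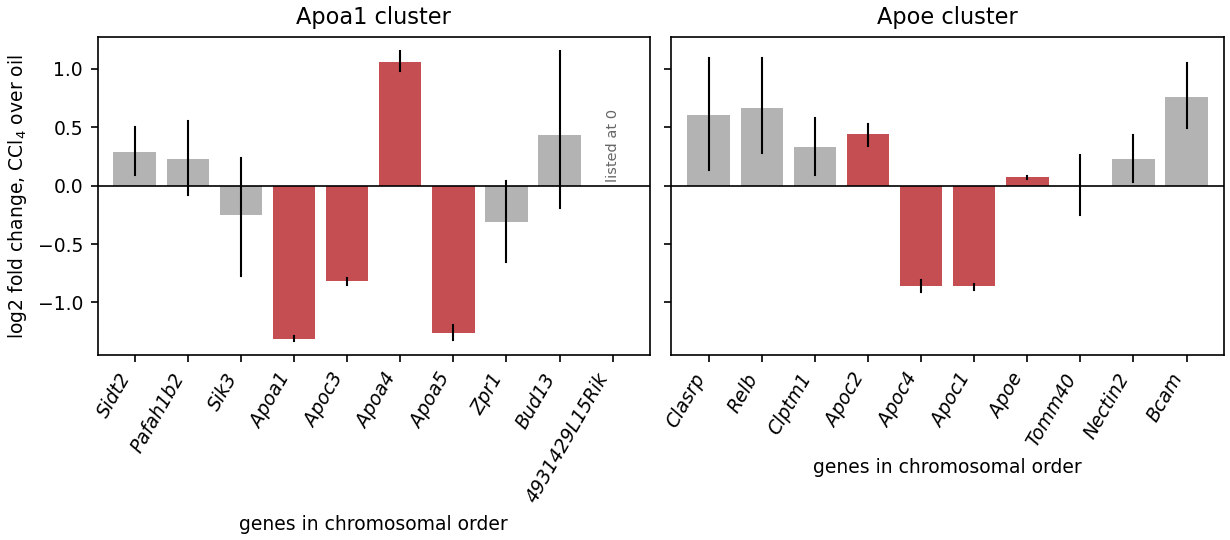
Log2 fold changes, CCl4 over oil with the deposited RPKM, as bars for the genes of the Apoa1 and Apoe clusters (red) and the 3 listed genes on each side (gray), in chromosomal order. Lines are 95% counting intervals for a transcript of 300 bases. Apoa4 is the 1 gene above 2-fold among its cluster, and the outer genes are within 2-fold where listed above 0.

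The 250 bases upstream of the RefSeq start are shown for 3 genes of the chromosome 9 cluster that are transcribed in the same direction, Apoa1 and Apoa5, which were called lower, and Apoa4, which was called higher with the deposited RPKM. They come from the RefSeq promoter table of GRCm38.p6, which held 8 of the 10 genes, Apoc1 and Apoc3 being without an entry. All 3 are on the plus strand and written 5′ to 3′. Capitals mark matches on either strand to 4 motifs. They are the TATA box TATAAA and 3 motifs of factors that act on liver genes: the FOXA-type TGTTTGC, the HNF4-type CAAAGNNCA and the C/EBP-type TTGCNNAA. These letters were chosen after promoter sequences had been seen. No 2 of the matches in these 3 windows overlap.
Apoa1, chr9:46228380-46228629: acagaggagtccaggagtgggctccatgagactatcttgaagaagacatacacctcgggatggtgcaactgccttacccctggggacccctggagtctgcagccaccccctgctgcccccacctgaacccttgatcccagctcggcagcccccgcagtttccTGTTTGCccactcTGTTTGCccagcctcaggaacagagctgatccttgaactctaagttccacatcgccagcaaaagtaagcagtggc
Apoa4, chr9:46240594-46240843: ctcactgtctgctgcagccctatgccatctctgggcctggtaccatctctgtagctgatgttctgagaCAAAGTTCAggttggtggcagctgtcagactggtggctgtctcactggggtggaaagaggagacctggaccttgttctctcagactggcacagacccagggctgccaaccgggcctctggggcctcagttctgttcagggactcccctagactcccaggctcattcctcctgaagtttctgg
Apoa5, chr9:46268358-46268607: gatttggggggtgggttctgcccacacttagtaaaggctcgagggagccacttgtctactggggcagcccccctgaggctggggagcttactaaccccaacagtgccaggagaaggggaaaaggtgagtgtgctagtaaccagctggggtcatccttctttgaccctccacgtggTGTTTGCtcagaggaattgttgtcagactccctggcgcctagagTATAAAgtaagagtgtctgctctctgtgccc

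The Apoa1 window held 2 matches of the FOXA-type motif, the nearer one 69 to 75 bases upstream of the start. The Apoa5 window also held a FOXA-type match 69 to 75 bases upstream, and a TATA box 26 to 31 bases upstream of the first of its 2 listed starts. The Apoa4 window held 1 HNF4-type match, 174 to 182 bases upstream, and no match to the other 3 motifs. Among the other genes with an entry, the Apob window held a match to each of the 4 motifs, the Apoh window an HNF4-type match and the Apom window none. Apoa2, which was also called lower, had 2 C/EBP-type matches in the window of 1 start and a TATA box in that of another, and no FOXA-type match. Of the 3 Apoe windows, 1 held the TATA box, on both strands with overlapping matches. Of 32851 such windows in the table, 12.4% held the TATA box, 4.3% the FOXA-type motif, 5.49% the HNF4-type motif and 9.56% the C/EBP-type motif. A match describes the letters of the window only.

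Of 19 genes of transcription factors that act on apolipoprotein genes, 17 were above 1 RPKM in both libraries, 5 of these were called lower, 12 were within 2-fold and none was called higher, and the median was -0.75, or 0.35 with scaling to other plasma proteins. Hnf4a was at 149 RPKM with oil and 50.1 RPKM with CCl4 (-1.57). Foxa3, a forkhead factor of hepatocytes, was at 47.7 and 11.2 RPKM (-2.08). Nr0b2, which encodes the corepressor SHP, was at 30.4 and 7.18 RPKM (-2.07). The other genes called lower were Mlxipl (-1.51), which encodes the glucose-responsive factor ChREBP, and Rora (-1.01). Regulators of lipid genes within 2-fold included Ppara (-0.98), Creb3l3 (-0.91), whose product acts on Apoa4 and Apoa5 among others, and Nr1h4 (-0.36), which encodes the bile acid receptor FXR. The highest values were those of Nr1d1 (0.98), Foxo1 (0.24) and Cebpa (0.08). Nr1d1 was at 1.39 and 2.84 RPKM, a ratio of 2.04, and was within the limit of a call through the 0.1 RPKM added to each value. Foxa1 was at 1.57 RPKM with oil and listed at 0 with CCl4, and Ppargc1a was listed at 0 in both libraries.

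The median of other apolipoproteins was close to that of the 10. Of a further 10 genes, 8 were above 1 RPKM in both libraries, 3 were called lower and none higher, and the median was -0.89, or 0.23 with scaling to other plasma proteins. The lowest were Saa4 (-2.44), the constitutive serum amyloid A of HDL, at 95.1 and 17.5 RPKM, and the near-identical copies Apol9a (-2.40) and Apol9b (-2.01), between which reads may have been split. Apof (-0.84) was close to Apoc1, and Clu (-0.56), the mRNA of clusterin, to Apom. Apoc2 was the 1 gene of this list above 0. Apod and Apol6 were listed at 0 in both libraries.

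**Figure D4:**
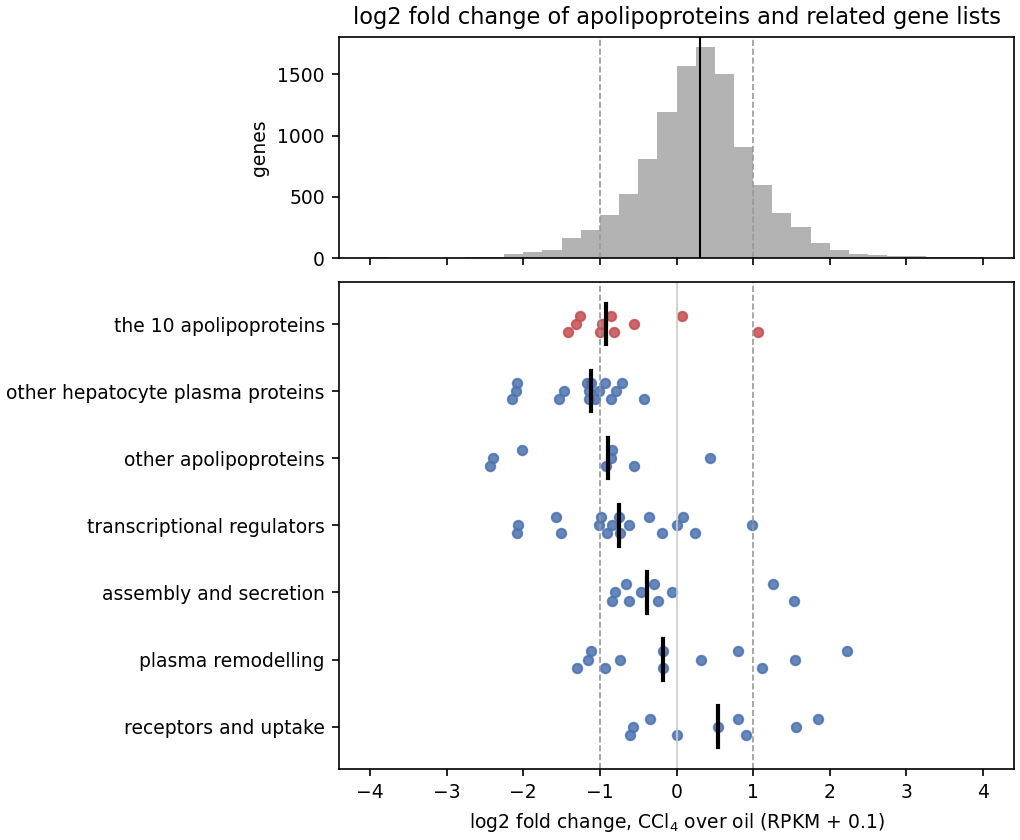
Log2 fold changes, CCl4 over oil with the deposited RPKM. The upper panel counts all 10689 genes tested in bins of 0.25, with values beyond 4 in the end bins and a line at their median of 0.30, and the lower panel shows each gene of the 10 apolipoproteins and of 6 related lists with black bars at the medians. The medians run from -1.12 for other plasma proteins and -0.92 for the apolipoproteins to 0.54 for receptors, and dashed lines mark 2-fold.

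Of 10 genes for assembly and secretion, 2 were called higher and none lower, 8 were below 0 and the median was -0.39, or 0.73 with scaling to other plasma proteins. Mttp, which loads lipid onto apoB, was at 31.2 RPKM with oil and 19.8 RPKM with CCl4 (-0.66). The lowest were A1cf (-0.84), Cideb (-0.80) and Mttp. Apobec1, the enzyme that edits the Apob mRNA so that a shorter apoB is made, was at 14.9 and 35.9 RPKM (1.26), whereas A1cf, which encodes a cofactor of that editing, was at 11.1 and 6.14 RPKM. Whether cells other than hepatocytes, whose markers are given with Apoe, had a part in these values was not tested. Editing itself was not measured. The other gene called higher was Sort1 (1.53), which encodes the sorting receptor sortilin, at 2.96 and 8.72 RPKM.

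Of 12 genes listed in both libraries for the remodeling of lipoproteins in plasma, 3 were called lower and 3 higher, and the median was -0.18, or 0.94 with scaling to other plasma proteins. Lipg was listed at 0 in the oil library. Those called lower included Lipc (-1.16), the hepatic lipase, and Lcat (-1.11), the partner enzyme of apoA-I, at 115 RPKM with oil and 53.1 RPKM with CCl4. Those called higher were Lpl (2.22), the lipoprotein lipase, at 10.6 and 49.9 RPKM, Abcg1 (1.54), a cholesterol exporter, and Pltp (1.12), which transfers phospholipid to HDL, at 54.8 and 119 RPKM. Lpl, Abcg1 and Pltp are also expressed by macrophages, whose markers are given with Apoe, and the part of those cells in these values was not tested.

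Of 9 receptor and uptake genes listed in both libraries, 2 were called higher and none lower, and the median was 0.54. That median was 0.24 after scaling to the median mRNA, 1.66 after scaling to other plasma proteins and -0.00 among genes of at least 10 RPKM in both libraries. Scarb1, the HDL receptor, was at 42.0 RPKM with oil and 41.9 RPKM with CCl4, and Lrp1, a remnant receptor, was at 81.1 and 118 RPKM (0.54). The genes called higher were Cd36 (1.84), a fatty acid transporter, at 19.7 and 70.6 RPKM, and Apobr (1.56), a receptor for apoB on macrophages, at 2.40 and 7.28 RPKM. Lrpap1 followed at 0.90. The part of macrophages, whose markers are given with Apoe, in the values of Cd36 and Apobr was not tested. The lowest were Sdc1 (-0.61), a heparan sulfate proteoglycan that binds remnants, and Lsr (-0.57). Vldlr was listed at 0 in both libraries.

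For each apolipoprotein, the gene outside the 10 with the closest pair of levels was found by the distance between log2 RPKM over the 2 libraries. Plasma proteins were the closest to 4 of them, Trf (transferrin) to Apoa1 and Apoa2 at distances of 0.27 and 0.54, Serpinc1 (antithrombin) to Apoh at 0.07 and Alb to Apoe at 1.06. The enzyme genes Cdo1, Sephs2, Gpx1 and Bhmt were closest to Apoa5, Apob, Apoc1 and Apoc3, at distances of 0.03, 0.02, 0.21 and 0.14. Cox6c, a subunit of cytochrome oxidase, was closest to Apom at 0.06, and the histone gene H1f2 was closest to Apoa4 at 0.06. Apoe had the most distant match, since no other gene reached its level in either library.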

How the data were processed

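RNA of primary hepatocytes was sequenced in 1 library from oil-injected and 1 from CCl4-injected mice, grouped by the treatment in the labels. The submitters' processing notes name CASAVA 1.4, TopHat2 and mm10, without their roles. The counting program and strand are not given in the sources used here. The RPKM values were computed and deposited by the authors for 27457 mRNA transcripts, and values under 1 RPKM are listed as 0. The authors' fold changes, p-values and q-values in the same tables were not used. The read counts that the authors deposited for lncRNAs absent from the annotation, with their lengths, were used only to check how RPKM was made. The 1417 of them in the oil and 1423 in the CCl4 library gave 1 total per library to within 0.00083% and 0.000949%. These totals, 62438197 and 70960849 reads, are larger than the depths given below for the annotated genes, and the reason was not tested.

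RefSeq identifiers were matched to symbols for 27049 transcripts through a RefSeq table of GRCm38.p6, and 408 without a symbol were left out. Where several transcripts of a gene were listed, that of the highest mean RPKM was taken. Genes at 1 RPKM or more in both libraries were compared, with a pseudocount of 0.1 RPKM and a call at 2-fold. The depth was found from the steps between RPKM values of genes under 400 bases in the annotated lncRNA table. It was 57992573 reads for oil (whole reads in 203 of 210 genes, within 0.02 reads or 6e-06 of the value) and 64655556 for CCl4 (215 of 222), or 57.99 and 64.66 reads per kilobase at 1 RPKM. Transcript lengths were not used, so counting intervals assume 300 bases. They cover counting error only.

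The members and lists were chosen with earlier results of these data known. The genes named are the 10, the partners of an apolipoprotein, up to 3 extremes of each list in each direction, 3 neighbors on each side of a cluster, and the closest gene by level. Calculations used pandas 2.3.3, numpy 2.4.6 and scipy 1.17.1 in Python 3.11.15, with matplotlib 3.10.9 for plots. The calculation was tested on simulated data. The values were recomputed with 9 other settings and with 1 more chosen after the data were seen. The values of 2 genes of these lists are not reported here by name, and the counts and medians of their lists hold them.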

Additional observations from a re-analysis of the deposited data

How the results depend on the processing

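No paired analysis was possible because each group had 1 library, and for the same reason no library could be left out. Apoa1, Apoa2 and Apoa5 were below 0 and Apoa4 above 0 under every alternative run. The other 6 were not: Apoe was at -0.23 with scaling to the median mRNA, and Apob, Apoc1, Apoc3, Apoh and Apom were above 0 with scaling to other plasma proteins. The cause of differences between scalings was not tested. The comparison with genes of at least the abundance of the least abundant apolipoprotein was chosen after seeing the data. It was made with the deposited RPKM only and gave 32.4% called lower. Signals under 1 RPKM could not be compared.

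With scaling to the median mRNA, which lowers each log2 fold change by up to 0.30, 7 apolipoproteins were called lower and 0 higher, against 9.71% and 7.99% of all genes. The median was -1.22 for the apolipoproteins, -1.19 for other apolipoproteins, -0.68 for assembly, -0.48 for remodeling, 0.24 for receptors, -1.05 for regulators and -1.43 for other plasma proteins. With scaling to other plasma proteins, 0 were called lower and 2 higher, against 0.524% and 73.1% of all genes. The medians were then 0.21, 0.23, 0.73, 0.94, 1.66, 0.35 and, by construction, 0.00, in the same order. With library sizes that leave out the 10 most abundant mRNAs, of which Apoe, Apoa1 and Apoa2 are 3, 5 were called lower and 1 higher, against 6.17% and 13.1% of all genes, with medians of -0.97 for the apolipoproteins and -1.17 for other plasma proteins. At 4-fold, 0 were called lower and 0 higher, against 0.702% and 1.76% of all genes. At 1.5-fold, 7 were called lower and 1 higher, against 12% and 31.5% of all genes. Among genes of at least 10 RPKM in both libraries, 11.2% were called lower and 8.83% higher, with 3 and 1 of the apolipoproteins, and the receptor median was -0.00. With 1 RPKM added, with RPKM summed over transcripts and with listed zeros set to 1 RPKM, the apolipoprotein calls were 3 lower and 1 higher, against 4.76%, 5.51% and 5.25% of all genes lower and 10.1%, 14.5% and 15.5% higher, in that order.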
